A study of Rattus norvegicus with 6 samples.

Results

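Introns are the parts of a gene that are transcribed and then spliced out of the mature mRNA. They can also hold transcripts of their own, including long non-coding RNAs, host-derived RNA fragments and antisense RNAs read from the other DNA strand. In sequencing of rRNA-depleted total RNA, reads in introns come from such transcripts and from host RNA that is not yet spliced, and in these tables the sources cannot be told apart. The transcripts described here are those that were put together from the reads, carry no Ensembl identifier, were classed by the assembler as lying wholly within an intron (class code i) and are longer than 200 bases. There were 9900 of them at 9316 loci, among 41501 assembled transcripts (23.9%) and 70376 transcripts of the table in all (14.1%). They lay in genes with 3917 names. In each case the gene that holds the intron is called the host.

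The RNA came from lungs of 3 control rats and 3 rats of the bleomycin-induced pulmonary fibrosis (PF) model, with 1 library per rat. All were Sprague-Dawley rats that entered the study at 7 weeks of age. The model rats received 1 intratracheal instillation of bleomycin, a drug that injures the lung epithelium and is followed by scarring, at 7 mg/kg, the controls received saline at 0 mg/kg, and lungs were taken on day 28. The model is one of injury in young rats by a single dose, and whole lung was used, so fewer cells of a type and less RNA per cell cannot be told apart.

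Levels are given as FPKM, the fragments per kilobase of transcript scaled to the size of the library, which allows comparison between transcripts of different length. The reads behind a transcript were estimated from the deposited coverage, its length and the read length of 150 bases, and came to between 35778631 and 41112682 per library over all transcripts. Lung markers were high in every library. The surfactant gene Sftpc lay between 2410 and 4146 FPKM, and Sftpb, Ager, Cldn18 and Scgb1a1 were at 46.3 FPKM or more in each, whereas Pecam1 and Cldn5 were not used here because their names did not match a row. No marker of the cell type lists that was in the table was at 0 throughout. The summed markers of macrophages were 113 to 136 FPKM in control and 119 to 148 FPKM in model libraries, and those of B and plasma cells were 66.5 to 76.0 and 53.1 to 87.9 FPKM. Those of the cardiac muscle in pulmonary veins were 22.9 to 30.1 and 24.7 to 53.0 FPKM. The part of such cells in the results was not tested.

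The study measured a locus in an intron of Bmp6 by qRT-PCR. For its qRT-PCR set as a whole it described the patterns as similar to those of the sequencing. The primers of the locus are shown here because they are the part of it whose sequence is given. They are printed 5′ to 3′, in lower case throughout.
MSTRG.15160 forward: gtgccgctttacccatatt
MSTRG.15160 reverse: cctcaacacctgtgagtttc
The forward primer has 19 bases, of which 47.4% are G or C, and the reverse primer 20 bases, of which 50% are. The locus itself lies at chr17:27027001-27055599 on the plus strand in the coordinates of the table, whose genome build is not given in the sources used here, opposite to Bmp6 on the minus strand.

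The intronic transcripts were mostly short, with a single exon. Of the 9900, 7281 (73.5%) had a single exon, 2309 had 2 exons and 310 had more, up to 12. The median length was 1109 bases with quartiles of 409 and 3608, and 759 were longer than 10 kb. At the length limit, the 16 transcripts of exactly 200 bases that were left out had mean levels of 0.423 to 19.3 FPKM (median 1.41), and the 16 of 201 bases that were kept had 0.447 to 5.59 FPKM (median 0.952).

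They were also expressed at a low level. The mean level over the 6 libraries had a median of 1.73 FPKM (quartiles 1.25 and 2.54), 1495 (15.1%) stayed below 1 FPKM, and only 76 exceeded 10 FPKM. The median transcript rested on 88.1 estimated reads per library (quartiles 29.2 and 330). Even so, 9067 (91.6%) were above 0 in all 6 libraries. Compared with the 10470 assembled transcripts of the same length limit between genes, which had a median of 712 bases, 1.40 FPKM and 47.1 reads, the intronic ones were longer and less often without a strand (43.6% against 61.4%), values given as descriptions of the assembly.

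For 9570 transcripts an annotated transcript of the host gene lay around them, and its strand divided them into 3 kinds. The 4237 unstranded ones (42.8%), for which the assembly gave no direction, all had 1 exon and a median of 445 bases. The 3442 on the strand opposite to the host (34.8%) were the longest, with a median of 2880 bases. The 1891 on the strand of the host (19.1%) had a median of 2068 bases. The host of the remaining 330 was not found around them. The sources used here name 2 different library kits and do not say whether strand was used in mapping, so reads of an opposite-strand transcript and of its host cannot be told apart with certainty.

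Opposite-strand transcripts sat in the most highly expressed hosts, and unstranded ones in the weakest. The median host level was 13.8 FPKM for the opposite-strand kind, 9.12 FPKM for the same-strand kind and 2.54 FPKM for the unstranded kind. The transcripts themselves varied less, with medians of 2.18, 2.17 and 1.38 FPKM. As a result the median transcript reached 18.1% of the host level on the opposite strand, 28.4% on the same strand and 55.6% without a strand. This order depends on counting assembled isoforms in the host. With them, the control medians relative to the host were -2.04, -1.46 and -0.58 in the same order (difference of log2(FPKM + 1)). With annotated host transcripts alone they were -0.31, -0.15 and -0.27, the same-strand kind then being highest. Over all 9196 transcripts with a host of at least 0.1 FPKM the median was 33.6% (quartiles 16.5% and 62.4%), and 1019 (11.1%) exceeded their host. The levels of transcript and host correlated across these pairs with r = 0.45 on the log2 scale and rho = 0.50, a description in which pairs share libraries and hosts.

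**Figure D1:**
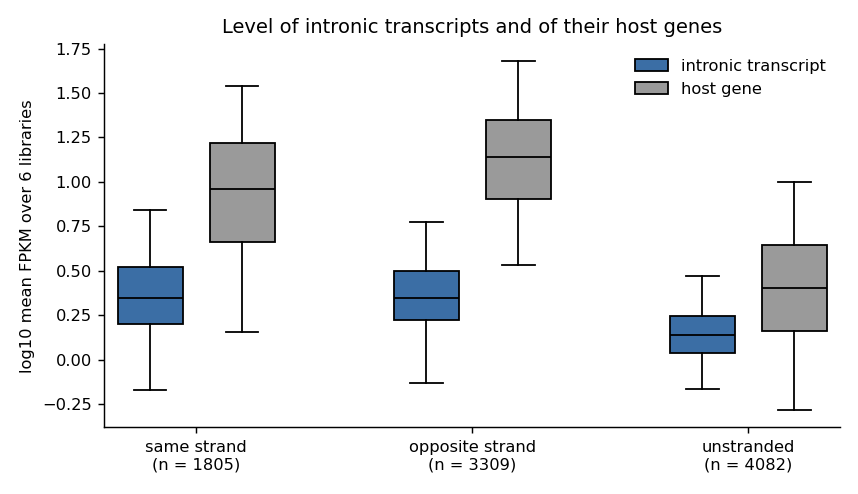
Mean FPKM over the 6 libraries (log10 axis) of intronic transcripts in blue and of their host genes in grey, by strand relative to the host; boxes give the median and quartiles and whiskers the 5th and 95th percentiles. The host medians of 13.8, 9.12 and 2.54 FPKM, assembled isoforms included, spread more widely than the transcript medians of 2.18, 2.17 and 1.38 FPKM.

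The transcripts lay more often toward the 5′ end of the host. Members lie wholly within introns by definition, and the shares were not adjusted for where the intron bases of a host lie. Divided by the middle of the transcript, 40.8% of opposite-strand, 43.6% of same-strand and 41.0% of unstranded transcripts were in the first of 3 equal parts of the gene, against 23.5%, 22.8% and 24.5% in the last. When the host was cut into 10 equal parts, the one at its 3′ end held 3.40%, 4.07% and 5.38% of these kinds, the lowest share of any part in each kind. Long hosts held more loci, with a rho of 0.43 between host span (median 64.2 kb) and the number of loci over 3763 hosts. While 2040 hosts had 1 locus, 93 had 10 or more.

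**Figure D2:**
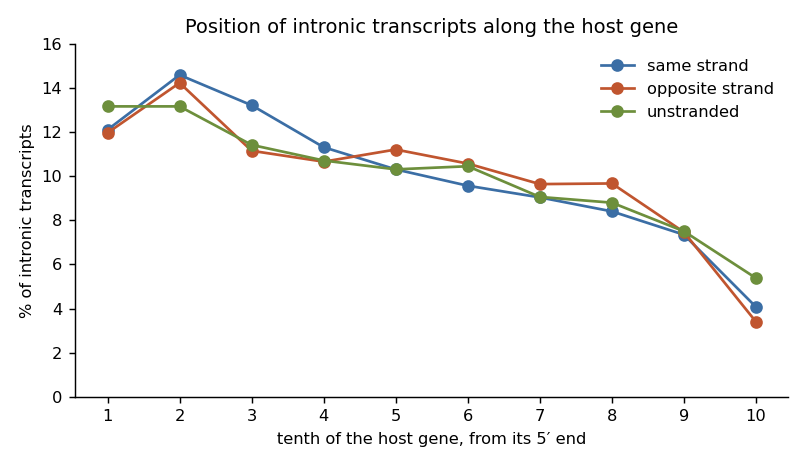
Share of intronic transcripts (percent of each strand kind) in each of 10 equal parts of the host gene, from its 5′ end at 1 to its 3′ end at 10. All 3 lines are highest within parts 1 and 2 and lowest in part 10.

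The 5 hosts with the most intronic transcripts were AC099449.1 with 104, St6galnac3 with 46, Arl15 with 40, and Pde4d and Zfpm2 with 35 each. The 104 transcripts of AC099449.1 came from only 2 loci, so they are overlapping forms of the same 2 regions, and 2 of 92 tested were called higher. In St6galnac3, which encodes a sialyltransferase, the 46 transcripts were 46 separate loci along 519 kb, 38 of them unstranded, with levels of 0.960 to 3.8 FPKM beside a host of 2.99 ± 1.01 FPKM (SD, n = 3) in control libraries. None of the 46 was called, and 8 were above 0 in the change from control to model. In Pde4d, which encodes a cAMP phosphodiesterase, 2 of 34 tested transcripts were called lower and 3 of 34 had a change above 0. The host itself was at 10.6 ± 0.0327 FPKM in control and 8.42 ± 1.03 FPKM in model libraries (SD, n = 3; change in log2(FPKM + 1) of -0.31 ± 0.10 SE, limma adjusted p = 0.953). Arl15, a small GTPase, had 1 of 37 called lower, with 12 changes above 0, and Zfpm2, a cofactor of GATA factors, had 1 of 35 called lower, with 8 above 0. Of all assembled transcripts, 1.11% were called higher and 1.87% lower, and the calls per host are too few to read a result from. The median change was below 0 in all intronic transcripts (-0.06) and all assembled ones (-0.05), and in the intronic ones it was -0.0074 after rescaling to TPM. The share above 0 over all transcripts was not counted.

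The intronic transcripts took about 1 read in 10 in both groups. They held 9.97%, 9.59% and 10.3% of the estimated reads in the control libraries and 9.59%, 9.95% and 9.34% in the model libraries. The groups overlap, and the means of 9.97% ± 0.378 and 9.63% ± 0.305 (SD, n = 3) did not differ beyond the spread between rats (exact permutation test, two-sided, p = 0.3, where 0.1 is the smallest possible). Opposite-strand transcripts alone held 6.01% ± 0.220 and 5.81% ± 0.179 (SD, n = 3; exact permutation p = 0.3).

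In deposited FPKM, the median level of all intronic transcripts was lower in every model library than in every control library. It was 1.84, 1.83 and 1.92 FPKM in control libraries and 1.75, 1.77 and 1.73 FPKM in model libraries. The means were 1.86 ± 0.0497 and 1.75 ± 0.0201 FPKM (SD, n = 3; exact permutation test, two-sided, p = 0.1, the smallest that 3 rats against 3 can give). The median change of single transcripts, -0.06 in log2(FPKM + 1), lay close to that of all assembled transcripts, -0.05. After rescaling to TPM the library medians were 3.31, 3.07 and 3.70 TPM in control and 3.28, 3.35 and 3.40 TPM in model libraries. These overlap (exact permutation p = 0.9), and the median change of single transcripts was -0.0074. After rescaling by median ratios over transcripts above 0 in all libraries, the library medians were 1.79, 1.81 and 1.81 in control. Model libraries were then at 1.73, 1.77 and 1.77, which do not overlap with control (exact permutation p = 0.1), and the median change was -0.029. Relative to the host, the median transcript stood at -1.21 ± 0.0122 in control and -1.24 ± 0.0265 in model libraries (difference of log2(FPKM + 1), SD, n = 3; exact permutation p = 0.3). When the host was counted from annotated transcripts alone, without its assembled isoforms, the same medians were -0.26 ± 0.0110 and -0.31 ± 0.0556, so that the distance from transcript to host depends on what is counted as host.

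To ask which intronic transcripts differed between model and control lungs, 9688 with FPKM above 0 in at least 3 libraries were fitted together with all other assembled transcripts. A transcript was called when the limma p was at most 0.05 before adjustment and the group means differed at least 2-fold. By this rule 227 (2.34%) were called, against 2.98% of all 39794 assembled transcripts. Of these, 82 (0.846%) were higher in the model, against 1.11% of all, and 145 (1.5%) were lower, against 1.87% of all. A p of at most 0.05 alone was met by 414 (4.27%), against 4.7% of all. No intronic transcript reached a Benjamini-Hochberg adjusted p below 0.05 with limma, the lowest being 0.0664, whereas 11 (0.0276%) of all assembled transcripts did. A linear model with a library size covariate also gave 0 at that level and 535 at an unadjusted p of at most 0.05.

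The 2 groups did not overlap in 1095 intronic transcripts (11.3%), against 10.7% of all assembled ones, with 324 higher and 771 lower in the model. The shares are thus near or below the background. The balance of directions depends on scaling. Of the calls, 36.1% were higher with the deposited FPKM and 47.8% after rescaling to TPM (96 higher and 105 lower of 201), which sets the total of each library equal. After rescaling by median ratios 41.1% were higher (90 higher and 129 lower of 219).

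The calls rested on few reads. The called transcripts had a median of 23.3 estimated reads and 1.16 FPKM, 94 had fewer than 20 reads, 77 were below 1 FPKM, and 5 were listed at 0 in all libraries of a group. When at least 20 estimated reads were required, 129 (1.56%) were called, against 2.46% of all assembled transcripts under that filter. With a mean of at least 1 FPKM it was 128 (1.52%), against 2.47%. By strand kind, 138 of 4222 unstranded transcripts (3.27%), 37 of 1826 same-strand transcripts (2.03%) and 47 of 3324 opposite-strand transcripts (1.41%) were called. The unstranded kind, with a median of 30.5 reads against 179 and 268 for the others, was the least deeply covered. The calls were spread over 222 loci in 214 hosts, and 8 hosts had calls at 2 loci.

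The hosts of the called transcripts showed little of the same change. For these tests a host was summed over all annotated transcripts and assembled isoforms of its name on the chromosome. This sum can differ from the host level around the intron that is printed. Of 217 called transcripts with a tested host, none had a host past the same thresholds in limma, and 12 had a host at an unadjusted p of at most 0.05, of which 10 had the same sign as the transcript. The median absolute change was 0.79 for the called transcripts and 0.09 for their hosts, on the log2(FPKM + 1) scale, where the former was selected for its size. Over all 3726 tested hosts, 6 (0.161%) were called, against 1.64% of 19548 genes, and 120 (3.22%) had a p of at most 0.05, against 4.52% of genes. These comparisons were not adjusted for the level of the genes. The 12 of 217 above are a larger share than this 3.22%, counted by transcript and not by host. None of the transcripts inside the 6 called hosts was called, but each held only 1 to 3, too few to read a result from. An example is Cep295, a centrosomal protein gene singled out after its values were seen, whose 2 intronic transcripts were not called. The host was at 9.04, 15.3 and 12.8 FPKM in control and 5.46, 8.19 and 4.06 FPKM in model libraries.

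Across 8739 loci the change of the intronic transcript and of its host correlated weakly, with r = 0.14 and rho = 0.18. The values were r = 0.20 and rho = 0.23 for same-strand, r = 0.16 and rho = 0.25 for opposite-strand and r = 0.11 and rho = 0.11 for unstranded transcripts. They are descriptions, because transcript and host were measured in the same 6 libraries and share their scaling. In a fit of the transcript minus its host, 414 of 9196 pairs (4.5%) had a p of at most 0.05 and 62 (0.674%) also moved by at least 1 on the log2 scale, 26 higher and 36 lower. No pair reached an adjusted p below 0.05 in limma, the lowest being 0.109.

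**Figure D3:**
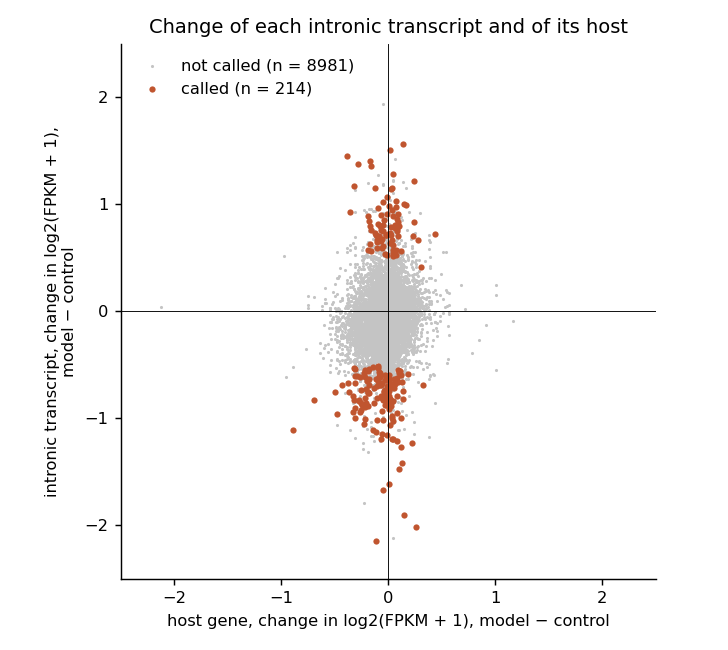
Change from control to model in log2(FPKM + 1) of 9195 intronic transcripts (vertical) against the change of the host gene (horizontal). The host gene is summed over all annotated transcripts and assembled isoforms of its name on the chromosome. Called transcripts are in orange and the others in grey. The 214 called transcripts with a pair spread up and down, while the median absolute change of the hosts of called transcripts was 0.09.

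Among transcripts with a mean of at least 1 FPKM, the 10 with the smallest p in each direction lay in hosts of which none was called. Transcript MSTRG.123.1, opposite to Utrn, which encodes the muscle and membrane protein utrophin, was at 1.68, 1.45 and 0.928 FPKM in control and 3.6, 3.66 and 4.02 FPKM in model libraries. All model libraries were above all controls, with a change in log2(FPKM + 1) of 1.03 ± 0.16 (SE) and a limma adjusted p of 0.429. The host was at 42.7 ± 4.96 and 44.8 ± 1.81 FPKM (SD, n = 3), and the 3 forms of the Utrn locus together were at 4.14 ± 0.292 and 3.76 ± 0.227 FPKM. In Aplp2, which encodes a relative of the amyloid precursor protein, MSTRG.34374.5 was listed at 0, 0.929 and 0 FPKM in control and was at 2.64, 2.98 and 2.44 FPKM in model libraries, and its locus of 3 forms was at 4.37 ± 0.378 and 7.16 ± 0.908 FPKM (SD, n = 3).

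Outside these 10, transcripts in Gata6 and Dut were among the 5 higher ones with the smallest p against their host. Opposite to Gata6, a transcription factor gene of lung epithelium and heart, MSTRG.16155.1 was at 1.57, 0.995 and 0.272 FPKM in control. In model libraries it was at 3.31, 3.8 and 2.61 FPKM. The groups do not overlap, and the host was lower, at 12.5 ± 0.243 and 10.0 ± 2.25 FPKM (SD, n = 3), so that relative to the host the change was 1.49 ± 0.26 (log2, SE; limma adjusted p = 0.511). Opposite to Dut, the gene of dUTPase, which keeps uracil out of DNA, MSTRG.23831.1 was at 2.60, 0.832 and 2.31 FPKM in control and 4.93, 3.66 and 4.47 FPKM in model libraries. The host was at 7.65 ± 0.223 and 5.78 ± 0.809 FPKM (SD, n = 3), and relative to it the transcript was higher by 1.29 ± 0.26 (log2, SE; limma adjusted p = 0.805). The call of the Dut transcript itself was lost without control 2 and without model 1.

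On the same strand as Cass4, a scaffold protein of cell adhesion, MSTRG.24730.1 of 232 bases had 2.74, 2.20 and 2.79 FPKM in control and 3.93, 6.13 and 5.43 FPKM in model libraries, a 2.01-fold difference that no longer passed without control 2, model 2 or model 3. Of the 10 higher ones, those in Grk5 and Cabin1 are described below, and those not yet named were small. MSTRG.33891.1 in Bin2, MSTRG.28423.1 in Fggy, a carbohydrate kinase gene, MSTRG.18473.1 in Arsb, the arylsulfatase B gene, MSTRG.29324.1 in AABR07073181.1 and MSTRG.22591.1 in Ralgps1 rested on 20.5 to 27.4 estimated reads and were 2.28 to 2.91 times as high in the model.

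Of those lower in the model, MSTRG.8599.2, opposite to the zinc finger gene Zfp655, was at 1.81, 4.48 and 5.62 FPKM in control and at 0.0517, 0.0498 and 0.0633 FPKM in model libraries. Its change was -2.15 ± 0.33 (log2(FPKM + 1), SE; limma adjusted p = 0.416), and relative to the host it was -2.04 ± 0.28 (SE; adjusted p = 0.262). Together with the second form of its locus it was at 4.68 ± 1.02 and 4.76 ± 0.564 FPKM (SD, n = 3). MSTRG.35491.1, opposite to Xrn1, the gene of the main cytoplasmic 5′ exoribonuclease, was at 4.63, 4.93 and 3.54 FPKM in control and 1.81, 2.01 and 1.82 FPKM in model libraries, with 139 estimated reads. The groups of both transcripts lay apart. MSTRG.14204.1 in Acsl1, which activates long-chain fatty acids, MSTRG.16070.1 in Gpr158, an orphan receptor gene, and MSTRG.6950.1 in Cd300a, an inhibitory receptor of leucocytes, were unstranded pieces of 212 to 243 bases with 12 to 13.4 estimated reads, and were 2.82 to 5.48 times as high in control as in model libraries.

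On the X chromosome, transcripts in Dlg3 and Hdac8 were outside the 10 lower ones with the smallest p. MSTRG.38436.6 in Dlg3, a scaffold protein of cell junctions, was at 1.73, 1.72 and 1.89 FPKM in control. In model libraries it was at 0.535, 0.514 and 0.936 FPKM. Its host was at 9.59 ± 1.62 and 7.21 ± 0.972 FPKM (SD, n = 3), and the transcript relative to it changed by -0.39 ± 0.22 (log2, SE; limma adjusted p = 0.988). MSTRG.38486.1 in Hdac8, a histone deacetylase gene, was at 4.03, 2.85 and 3.77 FPKM in control and 1.66, 2.03 and 1.64 FPKM in model libraries, just short of the 2-fold limit, with a host at 1.79 ± 0.344 and 2.07 ± 0.166 FPKM (SD, n = 3).

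**Figure D4:**
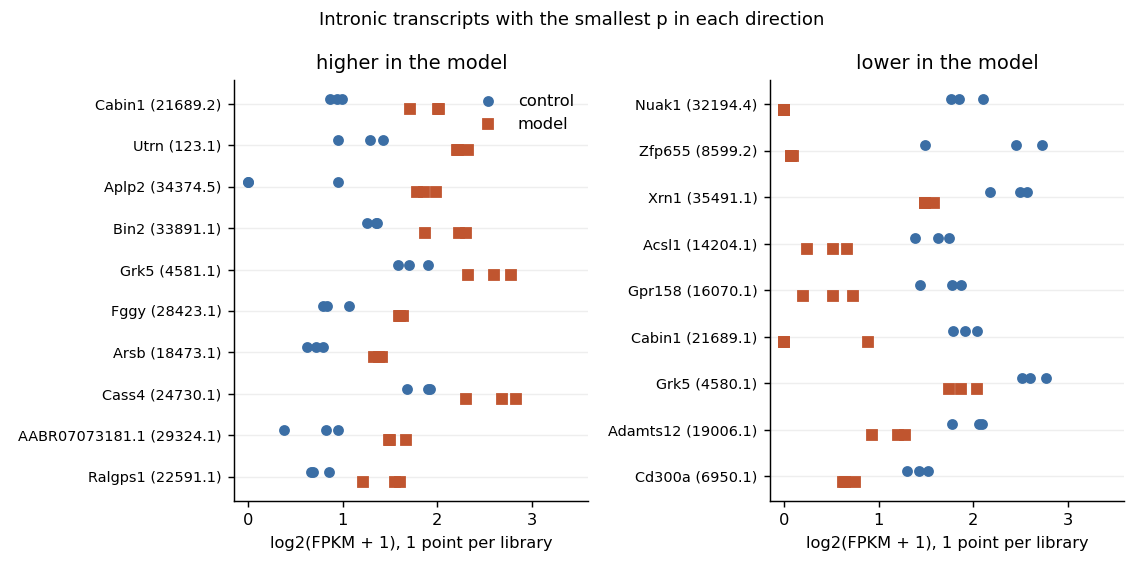
log2(FPKM + 1) of intronic transcripts with the smallest p in each direction, 10 higher and 9 lower in the model, labelled by host and transcript number, with 1 point per library (circles control, squares model). The groups do not overlap in any of those shown, and 1 of those lower in the model, in Nuak1, is listed at 0 in all 3 model libraries.

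Several of these transcripts shared a locus with other assembled forms, and there forms of 1 locus could differ in opposite directions. At the Cabin1 locus, in a gene for a calcineurin-binding protein, MSTRG.21689.1 (chr20:13926351-13932345) was at 2.44, 3.11 and 2.76 FPKM in control libraries and at 0, 0.856 and 0 FPKM in model libraries. MSTRG.21689.2 (chr20:13926368-13940859), which begins at nearly the same base and reaches further, was at 0.922, 0.981 and 0.822 FPKM in control and 3.03, 2.28 and 3.04 FPKM in model libraries. Their sum was 3.36, 4.09 and 3.58 FPKM in control and 3.03, 3.14 and 3.04 FPKM in model libraries, a change of -0.20 ± 0.12 (log2(FPKM + 1), SE; limma adjusted p = 0.916). The sum was lower in every model library than in every control, but by far less than either form.

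In Nuak1, a kinase gene related to AMPK, MSTRG.32194.4 was at 3.29, 2.60 and 2.40 FPKM in control and listed at 0 in all model libraries, the smallest p of the intronic set (adjusted p = 0.0664). Its 3 companions end within 200 bases of it, MSTRG.32194.3 being listed at 0 in every control and at 1.75, 0.763 and 0.671 FPKM in model libraries. The Nuak1 sum was 4.32 ± 0.658 and 4.14 ± 0.743 FPKM (SD, n = 3).

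Where a locus had several forms, its sum was rarely called. Of the 227 called transcripts, 184 were the only assembled transcript of their locus and 43 shared it. For 1 of these 43 the summed locus was also called, and the median absolute change was 0.98 for the transcript, which was selected for its size, and 0.18 for the sum on the log2(FPKM + 1) scale. By locus, 197 of 9234 sums (2.13%) were called, against 2.32% of all assembled loci, and 4 of 524 (0.763%) where the locus had several transcripts. The share over all assembled loci with several transcripts was not counted, so 0.763% cannot be read as particular to intronic loci. Between 2 intronic transcripts of 1 locus the changes correlated with r = -0.37 over 254 such loci, and 158 (62.2%) moved in opposite directions. Between neighbouring, non-overlapping loci of the same host r was 0.16 over 5017 pairs, of which 39.8% moved in opposite directions. In 3 loci both forms were called, in Cabin1, Lpcat2 and Inpp5d, and in all 3 with opposite signs. These are descriptions, since forms of a locus share the reads that the assembler divides among them.

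**Figure D5:**
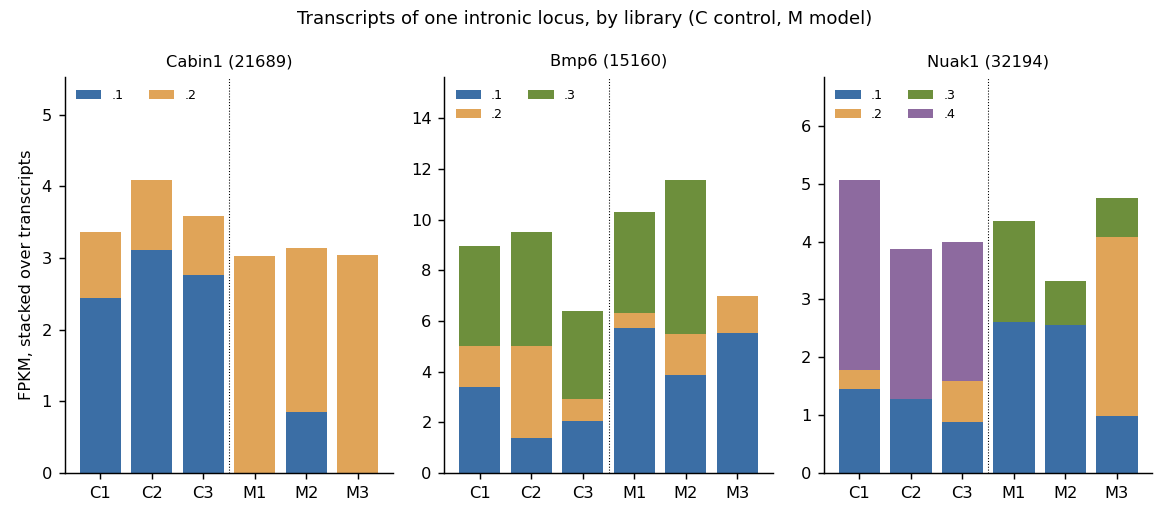
FPKM of each transcript of 3 intronic loci in every library (C1 to C3 control, M1 to M3 model), stacked, with the transcript number in the legend and a dotted line between the groups. The stacks reach 3.03 to 4.09 FPKM in Cabin1 and 3.31 to 5.07 FPKM in Nuak1 while their parts differ between the groups.

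An opposite pair was also seen in Grk5, a kinase that turns off G protein-coupled receptors, where the 2 transcripts lie on different strands. MSTRG.4580.1 (chr1:282269221-282288076), on the strand of the host, was at 5.09, 4.71 and 5.83 FPKM in control and 2.35, 3.12 and 2.67 FPKM in model libraries, a log2 ratio of -0.94. MSTRG.4581.1 (chr1:282275182-282284397), on the other strand and inside the span of the first, was at 2.0, 2.25 and 2.75 FPKM in control and 5.89, 5.07 and 4.02 FPKM in model libraries, a log2 ratio of 1.10. The estimated reads of both together were 3737, 3333 and 4711 in control and 4024, 3731 and 3204 in model libraries, which overlap. Relative to the host, which was at 24.8 ± 1.74 and 21.8 ± 2.40 FPKM (SD, n = 3), the opposite-strand transcript was higher by 1.02 ± 0.15 (log2, SE; limma adjusted p = 0.344). Its call was lost without control 1 or without model 1. Over 230 pairs of intronic loci that overlap on opposite strands, r between the changes was -0.17, and no pair had both members called.

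Bmp6, a signalling protein of the TGF-beta family made in lung, held 18 intronic transcripts at 13 loci. Its locus MSTRG.15160 has 3 forms. MSTRG.15160.1 was at 3.41, 1.40 and 2.07 FPKM in control and 5.73, 3.88 and 5.52 FPKM in model libraries. It was 2.20 times as high in the model (change 0.91 ± 0.26 in log2(FPKM + 1), SE; limma adjusted p = 0.929), and the call was lost without control 2. MSTRG.15160.2 was at 1.59, 3.62 and 0.849 FPKM in control and 0.595, 1.62 and 1.45 FPKM in model libraries, which overlap. MSTRG.15160.3 was at 3.95, 4.50 and 3.47 FPKM in control and at 3.96, 6.07 and 0 FPKM in model libraries.

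The sum of the 3 forms was 8.95, 9.52 and 6.39 FPKM in control and 10.3, 11.6 and 6.97 FPKM in model libraries. The groups overlap, with a change of 0.18 ± 0.22 (log2(FPKM + 1), SE; limma adjusted p = 0.925). The primers printed above carry the name of the locus and of no single form. Bmp6 itself was at 22.1, 20.9 and 31.5 FPKM in control and 19.9, 27.9 and 32.2 FPKM in model libraries, which overlap as well (change 0.09 ± 0.22, SE; adjusted p = 0.979). No other of the 18 was called. The most abundant of them, MSTRG.15164.1, was at 15, 10.9 and 11.3 FPKM in control and 12.4, 13.6 and 15 FPKM in model libraries.

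Grouped by the known function of the host, few intronic transcripts were called. Hosts of TGF-beta and BMP signalling held 72 tested transcripts in 18 genes, of which 1 was called higher (Bmp6) and 1 lower (Tgfbr3). Together these were 2.78%, against 2.98% of all assembled transcripts. The median change was 0.04, against -0.05 for all assembled transcripts. Tgfbr3 encodes betaglycan, a co-receptor, and its MSTRG.10879.2 was at 0.984, 1.54 and 1.05 FPKM in control and 0, 0.816 and 0 FPKM in model libraries. The other form of its locus, MSTRG.10879.1, was at 2.58, 1.19 and 0.994 FPKM in control and 1.5, 2.30 and 2.55 FPKM in model libraries, and the sum of both, at 2.78 ± 0.763 and 2.39 ± 0.818 FPKM (SD, n = 3), was not called. The Tgfbr3 call was lost without 4 of the 6 libraries in turn, and the host was at 26.6 ± 2.34 and 27.3 ± 0.733 FPKM (SD, n = 3).

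In hosts for collagens and matrix, 0 of 14 tested transcripts were called higher and 2 lower (14.3%, against 1.87% of all assembled transcripts), with a median change of -0.13. MSTRG.19006.1, opposite to the metalloprotease gene Adamts12, was at 3.26, 2.43 and 3.17 FPKM in control and 1.30, 1.42 and 0.911 FPKM in model libraries, apart in every library (change -0.84 ± 0.17 in log2(FPKM + 1), SE; limma adjusted p = 0.660). Its host was at 3.51 ± 0.547 and 3.46 ± 0.442 FPKM (SD, n = 3). MSTRG.37374.1, opposite to Col4a4, a collagen of basement membrane, was at 2.67, 2.34 and 1.25 FPKM in control and 1.27, 0.819 and 0.605 FPKM in model libraries, which overlap. That call was lost without control 1, control 2, model 2 or model 3.

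Among growth factor receptor hosts, 1 of 19 was called higher (5.26%, against 1.11% of all assembled transcripts) and 0 lower. It was MSTRG.2046.1, opposite to Igf1r, the receptor of insulin-like growth factor, at 1.05, 0.815 and 0.716 FPKM in control and 2.62, 1.83 and 1.75 FPKM in model libraries. The host was at 9.08 ± 0.631 and 9.34 ± 1.94 FPKM (SD, n = 3). None was called among 31 tested transcripts in hosts for integrins and laminins, 37 for Wnt and Notch signalling, 23 for endothelium, 15 for smooth muscle and myofibroblasts, 9 for alveolar type 1 cells, 3 for alveolar type 2 cells, 4 for airway epithelium, 9 for macrophages, 8 for T and NK cells, 16 for B and plasma cells, 2 for mast cells and neutrophils, and 1 for cardiac muscle.

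Hosts of the circadian clock, whose transcription factors cycle over the day, held 10 tested transcripts, of which 2 were called lower (20%, against 1.87% of all assembled transcripts) and 0 higher. A change below 0, as in the median of all assembled transcripts at -0.05, was seen in 8 of the 10, of which 5 lie in the single host Npas2. MSTRG.36780.1, opposite to Npas2, which pairs with Arntl, was at 2.79, 2.15 and 2.06 FPKM in control and 0.375, 1.29 and 0.593 FPKM in model libraries. MSTRG.2703.1 in Arntl, the core activator also called Bmal1, was at 2.36, 0.855 and 3.24 FPKM in control and 0.607, 0.976 and 0.472 FPKM in model libraries, which overlap. Both had hosts with lower means in the model. Arntl was at 4.31, 4.47 and 5.30 FPKM in control and 2.53, 3.61 and 1.66 FPKM in model libraries, with no overlap (change -0.69 ± 0.21 in log2(FPKM + 1), SE; limma adjusted p = 0.953). Npas2 was at 6.10 ± 1.55 and 4.23 ± 1.72 FPKM (SD, n = 3). Relative to their hosts the changes of the intronic transcripts were -0.14 ± 0.29 in Arntl and -0.47 ± 0.32 in Npas2 (log2, SE; adjusted p = 0.989 and 0.988). The Arntl call was lost without 5 of the 6 libraries in turn, and the time of day of sampling is not given in the sources used here.

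None of the 10 most abundant intronic transcripts was called. The highest, MSTRG.201.32, named after AABR07000398.1, was at 473, 453 and 316 FPKM in control and 467, 131 and 99.8 FPKM in model libraries, which overlap, and its locus holds 31 assembled transcripts of which it alone was classed as intronic. MSTRG.6750.1 in Tanc2, a scaffold protein gene, was spliced from 3 exons and stood at 107, 98.6 and 87.5 FPKM in control and 113, 84.6 and 110 FPKM in model libraries, 8.52 times the level of its host. In Wipf3, which encodes a partner of WASP proteins, MSTRG.25842.4 was on the opposite strand at 39.1, 48.8 and 138 FPKM in control and 7.45, 49.5 and 69.4 FPKM in model libraries. It was 44.9 times as abundant as the host, and the groups overlap.

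Others of the most abundant were in known genes of the lung and of every cell. MSTRG.29928.1, opposite to Epas1, the hypoxia factor HIF-2 alpha of endothelium, was steady at 22.0, 23.1 and 23.8 FPKM in control and 23.2, 23.9 and 28.1 FPKM in model libraries and reached 7.07% of its host. MSTRG.8458.1 in Elavl1, an RNA-binding protein gene, was at 30.1, 30.4 and 32.3 FPKM in control and 29.1, 30.0 and 31.5 FPKM in model libraries. MSTRG.11132.1 opposite to Shroom3 (mean 37.3 FPKM) and MSTRG.35257.1 opposite to the ubiquitin ligase gene Nedd4 (mean 24.9 FPKM) had overlapping groups.

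MSTRG.3910.1 opposite to Dock8, a regulator of leucocyte migration, was at 43.2, 36.0 and 56.5 FPKM in control and 36.7, 28.3 and 24.3 FPKM in model libraries. In Spon1, a matrix protein gene, MSTRG.2722.1 was at 72.0, 59.1 and 53.3 FPKM in control and at 38.3, 37.8 and 0.907 FPKM in model libraries. The groups lay apart, but model 3 stood far below the other model libraries, and the change of -2.12 ± 1.20 (log2(FPKM + 1), SE) had a limma adjusted p of 0.929. The host Spon1 was at 35.2 ± 4.04 and 36.3 ± 1.52 FPKM (SD, n = 3).

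A few members were unlike the short single-exon majority. The longest was MSTRG.37517.1, 1 exon of 81063 bases named after Agap1, at 3.33, 3.12 and 3.23 FPKM in control and 3.61, 3.68 and 3.73 FPKM in model libraries. These narrow groups did not overlap, though the change was only 0.15 ± 0.10 (log2(FPKM + 1), SE; limma adjusted p = 0.929). MSTRG.10576.2 of 64590 bases, opposite to Itpkb, an inositol trisphosphate kinase gene, was called higher, at 0.548, 1.79 and 0.171 FPKM in control and 1.76, 3.56 and 2.15 FPKM in model libraries, which overlap. The sum of the 4 forms of the Itpkb locus was 6.45 ± 2.16 and 7.85 ± 0.640 FPKM (SD, n = 3), and the call was lost without control 1, control 3, model 2 or model 3. MSTRG.1867.1 of 56767 bases in AABR07003304.2 was at 4.69 ± 0.648 and 4.61 ± 1.17 FPKM (SD, n = 3).

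The most spliced was MSTRG.35472.1 with 12 exons in Slc9a9, a sodium-proton exchanger gene of endosomes, at 3.73 ± 1.04 and 2.72 ± 0.396 FPKM (SD, n = 3). Next came MSTRG.29958.1 with 11 exons and MSTRG.29958.3 with 10 exons in Kcnk12, a potassium channel gene. The first was at 2.36 ± 0.186 and 2.76 ± 0.510 FPKM (SD, n = 3), 4.64 times the level of its host, and the second at 1.59 ± 0.477 and 0.898 ± 0.0800 FPKM. Both Kcnk12 transcripts lay on the strand of the host.

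Intronic transcripts rarely coincided with circular RNAs called in the same libraries. Of 433 circular intronic RNAs, 3 (0.693%) overlapped an intronic transcript by at least 1 base, in Ints6, Abhd17b and Foxj3, with 4 back-splice reads in all. Another 683 intronic transcripts (6.90%) lay within the span of a circular RNA made of exons. Of the 3917 host names, 1413 (36.1%) also gave a circular RNA, against 13.2% of 21210 annotated gene names, a comparison not adjusted for the length or level of the genes.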

How the data were processed

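Lung RNA of 3 control and 3 model rats, grouped by their labels, was analysed. The authors mapped trimmed reads with Bowtie2 and Tophat2, assembled and merged transcripts with StringTie, and deposited FPKM per transcript, with per-base coverage, a signal not scaled to library size. The authors also deposited counts of back-splice reads for circular RNAs. The processing notes of the submitters also name HISAT2. Host FPKM was the sum over annotated and assembled (class j) host transcripts around the intron, used for printed host levels, pairs and correlations. Host calls, the changes of single hosts and their p-values used the sum over all such transcripts of the name on the chromosome. Model and control libraries were compared with limma 3.58.1 (R 4.3.3, with trend) on log2(FPKM + 1), which understates changes of low transcripts, and with exact permutation tests for single values. Benjamini-Hochberg adjustment ran over all 39794 assembled transcripts tested, 9196 pairs, 28272 loci or 19548 genes. The fits were tested on simulated data. Estimated reads carry no counting intervals, and 6 libraries limit the precision. All tests were two-sided.

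The members and gene lists were chosen with earlier results of these data known. Transcripts were named by a rule: those named in the study or its qRT-PCR set, the 10 with the smallest p in each direction at a mean of at least 1 FPKM, the 10 most abundant, the 5 per direction that differed most from their host, the 5 hosts with most transcripts, those called in a gene list, the longest and the most spliced. Other transcripts of the same loci, Lpcat2, Inpp5d, Cep295 and the circular RNA hosts were named after their values were seen. Alternatives were other pseudocounts, filters, scalings, host definitions, a linear model, a replicate block, leaving out each library, and locus sums, the last and those of the host genes and of the median level being added after the data were seen. Sequences of the members were not used here. A few transcripts that the rule names are not reported here.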

Additional observations from a re-analysis of the deposited data

How the results depend on the processing

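Against 227 intronic transcripts called (2.34%, against 2.98% of all assembled ones), there were 128 with a mean of at least 1 FPKM. Of these, 126 were among the 227, and the share was 1.52%, against 2.47% of all assembled transcripts under this filter. With at least 20 estimated reads there were 129 (128 among the 227), or 1.56% against 2.46%. A linear model with a library size covariate gave 68 (49 among the 227), or 0.702%. It calls fewer assembled transcripts too, 1.16% (461 of 39794). Other pseudocounts, scalings and filters gave 173 to 225 (1.79% to 2.32%, against 2.57% to 2.99% of all assembled transcripts). Leaving out each library in turn gave 203 to 282 (2.11% to 2.93%, against 3.08% to 3.97%), of which 119 to 134 were among the 227. Of the transcript-to-host pairs, 62 were called, 156 with the host from annotated transcripts only, 194 with a pseudocount of 0.1, and 68 to 102 without each library. The correlation of intronic and host changes, 0.14, was 0.068 with the host from annotated transcripts only and 0.0896 to 0.173 without each library. Called hosts numbered 6, and 4 to 19 without each library. The share of estimated reads, the median ratio to the host and the median level kept their direction and did not pass the exact permutation test in any alternative run, which 3 rats against 3 cannot pass. 3 named transcripts changed direction when their locus was summed. These were Utrn MSTRG.123.1 (-0.11), Cabin1 MSTRG.21689.2 (-0.20) and Zfp655 MSTRG.8599.2 (0.031, in log2(FPKM + 1)). Of 29 named and called transcripts, 8 lost the call without at least 1 library, and the other 21 kept it wherever they were tested. Those listed at 0 in all model libraries, among them Nuak1 MSTRG.32194.4, could not be tested without a control. They were then above 0 in fewer than 3 libraries. Replicate numbers did not pair the samples: the deviations of same-numbered libraries correlated with 0.02, 0.06 and -0.04. With the replicate block, 206 transcripts (2.13%, against 3% of all assembled ones), 78 pairs and 9 hosts were called. The causes of these differences were not tested.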
